A study of Mus musculus with 11 samples.

Results

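The genes described here carry glucose into glycolysis or respond to low oxygen, and 34 of them were followed by name through 3 types of mouse embryonic motor neuron. Of the 34, 21 serve glucose entry, glycolysis and the branch to lactate or the mitochondrion, and 13 serve oxygen sensing and the hypoxia response. A gene entered the tests when the deposited table held a probe set annotated to its symbol and to no other, and among several such probe sets the brightest over the 11 arrays stood for the gene. In this way 30 genes were tested, 18 of the glycolysis group and 12 of the hypoxia group, out of 18193 genes with such a probe set. Gpi1 and Eno1 have no listed probe set, Bnip3l is listed only together with another symbol, and for Gapdh the probe sets with that symbol alone are array controls, so these 4 were not tested.

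Glycolysis splits glucose into pyruvate in the cytosol and yields ATP without oxygen. Pyruvate then goes to lactate through lactate dehydrogenase or is taken up by the mitochondrion, where pyruvate dehydrogenase turns it into acetyl-CoA unless pyruvate dehydrogenase kinases switch that enzyme off. When oxygen is scarce the prolyl hydroxylases that mark hypoxia inducible factor 1 alpha for destruction lose activity, and the stabilised factor switches on glucose transporters, most glycolytic enzymes and signals such as adrenomedullin and vascular endothelial growth factor.

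All cells came from C57/BL6 mouse embryos that carried the Hb9::GFP reporter, in which the promoter of the motor neuron gene Hb9 (Mnx1) drives green fluorescent protein. Phrenic motor neurons (4 arrays), which innervate the diaphragm, and radial motor neurons of the lateral motor column (LMC radial, 3 arrays), which innervate the forelimb, had in addition taken up dextran-tetramethylrhodamine from their nerve in trunk explants. The third type, C3-C5 GFP-only (4 arrays), is named for reporter-positive motor neurons of those cervical segments. Spinal cords were dissociated and the neurons were sorted by fluorescence. All 3 types share the reporter, the dissociation and the sort, and the embryonic day is not stated in the labels. Dextran uptake is described for the phrenic and LMC radial types only. In comparisons with C3-C5 GFP-only neurons, dextran labelling and cell type therefore cannot be told apart. The LMC radial labels name no segment, so spinal level and cell type cannot be told apart there, and no label tells if replicate arrays are of different embryos or litters, so the p-values reflect array-to-array spread alone, which may be technical. Because each array measures a pool of sorted cells, fewer expressing cells and less RNA per cell cannot be told apart.

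Values are log2 expression levels, on which a difference of 1 is a 2-fold change. Means over 6 motor neuron markers (Mnx1, Isl1, Isl2, Chat, Slc18a3 and Slc5a7) ran from 7.50 to 7.95 in phrenic, 7.87 to 8.09 in C3-C5 GFP-only and 6.80 to 7.16 in LMC radial arrays, and 4 of the 6 lay above 5 on every array. Mnx1 and Isl1 were lower in LMC radial neurons than in the mean of the others (-0.90 and -2.52, adjusted p = 0.000589 and 0.00414), and Isl2 was higher in C3-C5 GFP-only neurons (1.02, adjusted p = 0.009). Mean levels of 18 mesenchyme and cartilage markers lay higher in phrenic (5.28 to 6.72) and LMC radial (5.02 to 6.01) than in C3-C5 GFP-only arrays (4.53 to 4.80), although Lum, Acan and Tcf21 were below 5 on every array. Of that list Prrx1 (1.73, adjusted p = 0.0313), Foxc1 (1.43, 0.0416) and Fn1 (0.96, 0.0464) were higher in phrenic neurons than in the mean of the others, Acan in LMC radial neurons (0.65, 0.0492), and Postn in phrenic against C3-C5 GFP-only neurons (1.35, 0.0384). Phrenic replicate 4 stood apart, with the highest mean of that list (6.72) and of 8 progenitor markers (8.05, against 6.69 to 7.004 in the other phrenic arrays). It was also the highest of all arrays for Schwann cell markers (7.12, against 5.03 to 6.36 in the other phrenic arrays). The same held for interneuron markers (5.81, against 4.52 to 4.80), while its motor neuron mean (7.50) was the lowest phrenic one. Phrenic replicate 3 had the highest means of all arrays for endothelium (4.84) and macrophage or microglia markers (4.47, with 4.45 in replicate 4). Of these 2 lists, 6 of 9 and 5 of 9 markers were below 5 on every array. Its erythroid mean (3.29) was the lowest, and its mesenchyme mean (6.28) lay above every array of the other types. The difference between the 3′ and 5′ probe sets of Actb, which grows with RNA degradation, ran from 1.05 to 2.15 in phrenic, 1.07 to 1.98 in C3-C5 GFP-only and 1.01 to 1.12 in LMC radial arrays. By the 25th percentile of their values the arrays fell into a set of 7 (3.26 to 3.38; phrenic 1 and 4, C3-C5 GFP-only 1 and 4, and all LMC radial) and a set of 4 (3.18 to 3.20; phrenic 2 and 3, C3-C5 GFP-only 2 and 3).

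Hypoxia inducible factor binds a short DNA core, spelled ACGTG or GCGTG, and the 250 bases before the start of each gene were searched for these letters on both strands in RefSeq sequence of build GRCm38.p6. Of the 28 tested genes in that table, 22 (78.6%) held either core and 15 (53.6%) held ACGTG, where 10431 of all 27025 genes in the table (38.6%) held either and 4477 (16.6%) held ACGTG. The genes were listed for their part in glycolysis and the hypoxia response, so the larger share may follow from that choice. The other genes were not matched to them in base composition, and the cause of the larger share was not tested. Slc2a3 and Ndrg1 are not in the table. The 4 upstream stretches below belong to genes that passed the test between motor neuron types, and are shown so that the cores can be seen in their surroundings. Capitals mark a core, written CACGC or CACGT where it lies on the opposite strand. Each stretch is read from 5′ to 3′ and ends at the base before the start.
Pdk1, chr2:71872974-71873223, plus strand: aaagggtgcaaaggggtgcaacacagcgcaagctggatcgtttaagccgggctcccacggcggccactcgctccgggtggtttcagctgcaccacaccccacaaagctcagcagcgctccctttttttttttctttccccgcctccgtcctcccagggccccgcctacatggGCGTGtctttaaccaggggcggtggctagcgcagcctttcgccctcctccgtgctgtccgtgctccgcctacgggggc
Higd1a, chr9:121857797-121858046, minus strand: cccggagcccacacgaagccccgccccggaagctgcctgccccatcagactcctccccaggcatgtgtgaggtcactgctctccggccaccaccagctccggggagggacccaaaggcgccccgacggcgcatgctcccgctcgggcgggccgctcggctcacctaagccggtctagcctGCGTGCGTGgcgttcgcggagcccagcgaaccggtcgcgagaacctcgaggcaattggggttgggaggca
Adm, chr7:110627407-110627656, plus strand: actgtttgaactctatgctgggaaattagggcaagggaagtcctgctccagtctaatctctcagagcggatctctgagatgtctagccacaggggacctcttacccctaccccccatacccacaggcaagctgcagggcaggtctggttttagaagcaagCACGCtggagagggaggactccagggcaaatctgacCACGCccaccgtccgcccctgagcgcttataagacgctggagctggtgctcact
Egln3, chr12:54203875-54204124, minus strand: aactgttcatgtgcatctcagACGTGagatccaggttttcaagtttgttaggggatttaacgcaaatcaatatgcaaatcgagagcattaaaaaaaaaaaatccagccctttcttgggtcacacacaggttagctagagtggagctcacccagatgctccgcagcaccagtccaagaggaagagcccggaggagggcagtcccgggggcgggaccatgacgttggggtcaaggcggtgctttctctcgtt

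Pdk1 held 1 GCGTG, Higd1a 2 that overlap by a base, Adm 2 on the opposite strand, and Egln3 1 ACGTG; Eno2, which also passed, held neither core in this window. Pdk1 has 2 listed starts and the upstream stretch of the first is shown. A match describes the letters in the window and says nothing of binding there. The cores stood before genes that were higher in phrenic neurons (Pdk1, Higd1a) and before genes that were lower there (Adm, Egln3).

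The series was designed to set each cell type against overall expression, and each type was therefore compared with the mean of the other types and, to place a difference, with each of them. Phrenic neurons stood apart from the mean of the other types in 6 of the 30 genes: Slc2a3, Eno2, Pdk1 and Higd1a were higher and Adm and Ndrg1 were lower (limma, adjusted p under 0.05). In that comparison the array as a whole (45037 tested probe sets) had 2.4% higher and 1.45% lower, and over 1 probe set per gene 3.08% and 1.79%. LMC radial neurons had 2 genes lower, Pdk1 and Higd1a, and none higher, against 3.37% and 3.65% over the array. C3-C5 GFP-only neurons had 0 of 30 in limma, against 0.691% of all probe sets higher and 0.282% lower, and 4 of 30 at an unadjusted p under 0.05, where 14.8% of all probe sets stood.

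Between pairs of types, Slc2a3 and Pdk1 were higher in phrenic than in C3-C5 GFP-only neurons and none was lower, against 0.973% and 0.986% of all probe sets. With the replicate number as a block over all 3 types, Higd1a was also higher and Ndrg1 lower, giving 4 genes, against 1.91% of all probe sets. The numbers are not shown to pair the arrays, as each phrenic array correlated best with a C3-C5 GFP-only array of another number. Against LMC radial neurons Eno2, Pdk1 and Higd1a were higher and Adm, Egln3 and Ndrg1 lower in phrenic neurons, against 3.48% and 3.14% of all probe sets. LMC radial and C3-C5 GFP-only neurons differed in 0 of 30 genes in limma, against 1.88% of all probe sets in each direction, and 1 of 30 had an unadjusted p under 0.05, against 20% of all probe sets. In all 7 genes passed in at least 1 comparison and 23 in none. These comparisons share arrays and are therefore not independent of each other.

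The count of genes passing moved with single arrays. In phrenic against C3-C5 GFP-only neurons it went from 2 to 5 without phrenic replicate 4, adding Aldoc and Higd1a as higher and Adm as lower, and to 1 without any 1 of phrenic replicates 1, 2 and 3, C3-C5 GFP-only replicates 1, 2 and 3, or LMC radial replicates 1, 2 and 3. The share of all probe sets passing there, 1.96% with all arrays, was 2.75% without phrenic replicate 4 and 1.02% to 2.0% without one of those 9 arrays. Against LMC radial neurons it went from 6 to 3 without LMC radial replicate 1 and to 2 without LMC radial replicate 2 or 3, while the share of all probe sets went from 6.61% to between 3.73% and 3.99%. Against the mean of the other types it went from 6 to 3 without phrenic replicate 2 and to 2 without LMC radial replicate 2, and the share from 3.85% to 3.02% and 2.67%. For LMC radial against the mean of the others the 2 became 1 without any 1 LMC radial array, and 4 without phrenic replicate 1 or 4, where the share of 7.02% became 3.49% to 3.60%, and 7.71% and 10.5%. In the fit of the 7 arrays with the higher 25th percentile, Pdk1 alone passed, in phrenic against LMC radial neurons (1.07, adjusted p = 0.0285) and against the mean of the others (1.05, adjusted p = 0.0303). With the Actb difference as a covariate, Pdk1 passed in all 3 phrenic comparisons, Slc2a3 against C3-C5 GFP-only neurons and the mean of the others, and Higd1a against the mean of the others. Of all probe sets, 1.73% passed against LMC radial neurons in the fit of 7 arrays and 2.28% with the Actb covariate.

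Most small differences pointed the same way without passing. The phrenic mean was above the C3-C5 GFP-only mean in 26 of the 30 genes, with a median difference of 0.23 where the median over all probe sets was -0.00, and above the LMC radial mean in 21 of 30, with a median of 0.25 where that of all probe sets was -0.01. The glycolysis group carried most of this, with 17 of 18 genes above C3-C5 GFP-only and 15 of 18 above LMC radial and medians of 0.24 and 0.26. Of 27 further genes of glycolysis, pyruvate and lactate handling, read below, 11 and 18 were above, with medians of -0.03 and 0.07. Over all 45037 probe sets 22490 and 21664 were above. In the hypoxia group 9 of 12 and 6 of 12 were above, with medians of 0.13 and 0.05.

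**Figure D1:**
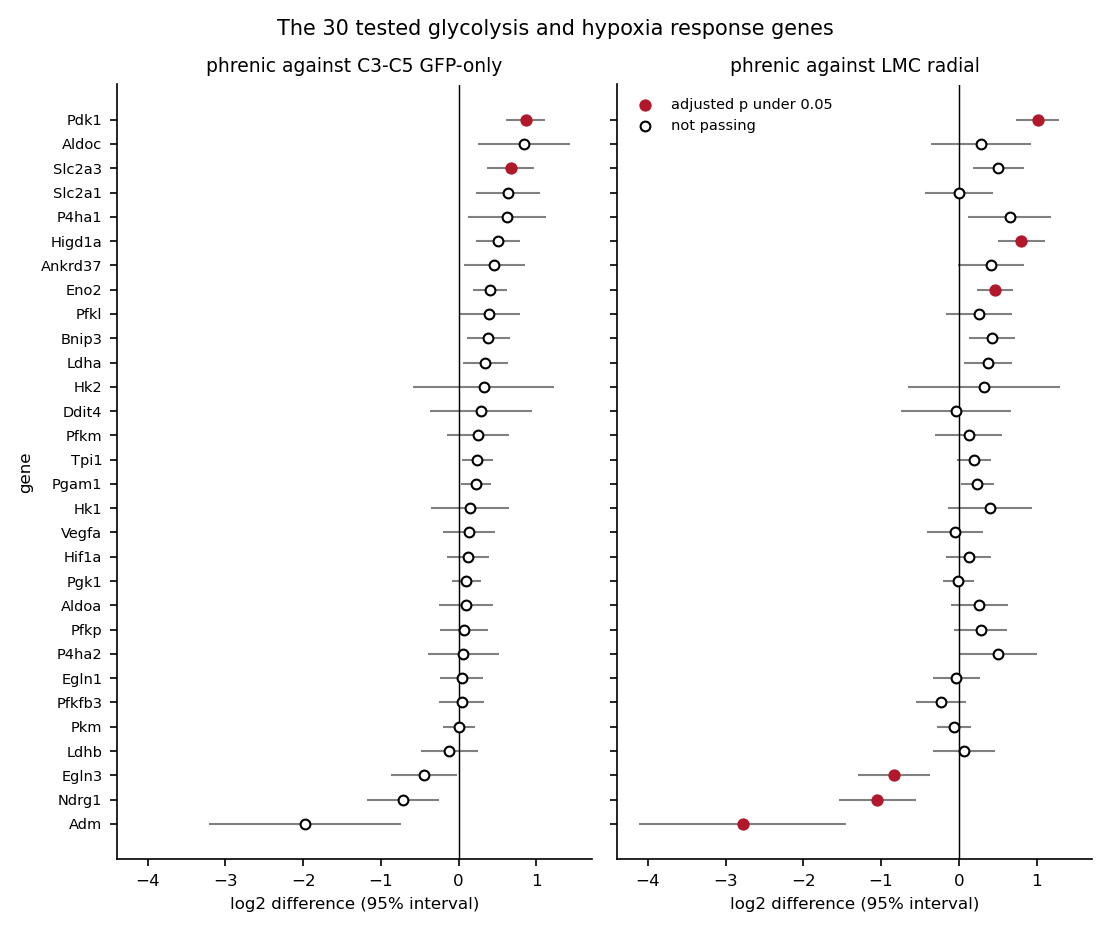
Differences in log2 expression of the 30 tested genes (x axis, with 95% intervals) between phrenic and C3-C5 GFP-only neurons on the left and between phrenic and LMC radial neurons on the right; filled points passed at an adjusted p under 0.05. Most points lie to the right of 0 by less than 1, while Adm lies at -1.97 and -2.78.

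Pdk1 had the smallest adjusted p of the 30 genes in each phrenic comparison. It encodes pyruvate dehydrogenase kinase 1, which inactivates pyruvate dehydrogenase and so limits the oxidation of pyruvate in the mitochondrion. The phrenic arrays read 8.65, 8.69, 8.66 and 8.94, the C3-C5 GFP-only arrays 7.84, 8.08, 7.87 and 7.72, and the LMC radial arrays 7.74, 7.84 and 7.58. Every phrenic array was above every other array, and the other types overlapped each other. Phrenic neurons averaged 8.74 ± 0.14 (SD, n = 4), against 7.88 ± 0.15 (n = 4) and 7.72 ± 0.13 (n = 3). The difference was 0.86 ± 0.12 (SE) from C3-C5 GFP-only neurons, a 1.82-fold level (adjusted p = 0.00317), and 1.01 ± 0.12 from LMC radial neurons, a 2.02-fold level (adjusted p = 0.000823).

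Against the mean of the other types Pdk1 was higher by 0.94 ± 0.10 in phrenic neurons (adjusted p = 0.000422) and lower in LMC radial neurons, at -0.58 ± 0.11 (adjusted p = 0.0108). The latter call was lost without LMC radial replicate 3 (-0.51, adjusted p = 0.061). LMC radial and C3-C5 GFP-only neurons differed by -0.15, with a 95% interval from -0.43 to 0.12. The 3 calls in which phrenic neurons were higher held whichever array was left out, and within the set of 7 arrays the phrenic excess over C3-C5 GFP-only was 1.02 and within the set of 4 it was 0.70. With the mesenchyme list as a covariate the excess over C3-C5 GFP-only neurons was 0.61 and no longer passed (adjusted p = 0.23), while that over LMC radial neurons was 0.94 and did.

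Glucose enters neurons mainly through the transporter encoded by Slc2a3, known as GLUT3. Phrenic replicates 1 to 4 read 10.95, 10.90, 10.60 and 10.37, the C3-C5 GFP-only arrays 10.16, 10.05, 10.07 and 9.86, and the LMC radial arrays 10.23, 10.15 and 10.21. Every phrenic array was above all others, with replicate 4 the lowest of them. The phrenic mean of 10.71 ± 0.27 (SD, n = 4) was higher than the C3-C5 GFP-only mean of 10.04 ± 0.13 (n = 4) by 0.67 ± 0.14 (SE; adjusted p = 0.0321) and stood 0.51 ± 0.15 above the LMC radial mean of 10.20 ± 0.04 (n = 3), which missed the threshold (adjusted p = 0.0665) and passed with the replicate block, with array weights, with the mesenchyme covariate, without phrenic replicate 4 and without phrenic replicates 1 and 4. Slc2a3 was higher than the mean of the other types by 0.59 ± 0.12 (adjusted p = 0.0216).

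The Slc2a3 call against C3-C5 GFP-only neurons held in 1 of the 11 fits that left out an array, the one without phrenic replicate 4. It ended without phrenic replicate 1, 2 or 3 (adjusted p = 0.0768, 0.0693 and 0.0501), without C3-C5 GFP-only replicate 1, 2, 3 or 4 (0.0562, 0.0882, 0.0882 and 0.1), and without LMC radial replicate 1, 2 or 3 (0.0533, 0.0538 and 0.0511). In these 10 fits the difference itself stayed between 0.59 and 0.71. The call against the mean of the other types ended without phrenic replicate 1 (0.51, adjusted p = 0.0579), phrenic replicate 2 (0.52, 0.0648) and LMC radial replicate 2 (0.58, 0.0551).

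Slc2a1 encodes GLUT1, the transporter best known from the blood-brain barrier, and its pattern across types was another one. Phrenic and LMC radial neurons had means of 10.86 ± 0.17 (SD, n = 4) and 10.85 ± 0.41 (n = 3), and C3-C5 GFP-only neurons one of 10.22 ± 0.26 (n = 4). The differences from C3-C5 GFP-only neurons, 0.63 ± 0.19 (SE) for phrenic and 0.63 ± 0.20 for LMC radial, did not pass (adjusted p = 0.134 and 0.113). Every phrenic array was above every C3-C5 GFP-only array.

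Eno2 encodes the neuronal form of enolase, the enzyme that makes phosphoenolpyruvate. Its phrenic arrays read 11.60, 11.60, 11.74 and 11.56, the C3-C5 GFP-only arrays 11.35, 11.24, 11.22 and 11.07, and the LMC radial arrays 11.29, 11.06 and 11.13. All phrenic arrays were above all others and lay close together. Phrenic neurons averaged 11.62 ± 0.08 (SD, n = 4), higher than the 11.16 ± 0.12 (n = 3) of LMC radial neurons by 0.46 ± 0.11 (SE; adjusted p = 0.027) and higher than the mean of the other types by 0.43 ± 0.09 (adjusted p = 0.0204). The difference of 0.40 ± 0.10 from C3-C5 GFP-only neurons (11.22 ± 0.11, n = 4) missed the threshold (adjusted p = 0.0716). The call against LMC radial neurons ended without phrenic replicate 2 (0.47, adjusted p = 0.0561) or 3 (0.43, 0.0643) and without LMC radial replicate 2 (0.41, 0.107) or 3 (0.45, 0.0876), and that against the mean of the others without phrenic replicate 3 (0.40, 0.061) or LMC radial replicate 2 (0.41, 0.0542). With the mesenchyme covariate, the latter difference was 0.44 and no longer passed (adjusted p = 0.148), and it also missed the threshold with the Actb covariate (0.40, adjusted p = 0.0779) and with the 7 arrays (0.39, 0.251).

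Higd1a, a small mitochondrial protein induced by low oxygen, was the hypoxia gene that was higher in phrenic neurons. It read in the phrenic arrays 11.57, 11.48, 11.64 and 11.21, the C3-C5 GFP-only arrays 10.88, 10.97, 11.17 and 10.85, and the LMC radial arrays 10.62, 10.51 and 10.87. The lowest phrenic array lay just above the highest C3-C5 GFP-only array. The phrenic mean of 11.48 ± 0.19 (SD, n = 4) was higher than the LMC radial mean of 10.67 ± 0.18 (n = 3) by 0.81 ± 0.14 (SE), a 1.75-fold level (adjusted p = 0.00642). It was higher than the mean of the other types by 0.66 ± 0.11 (adjusted p = 0.00936), and both calls held whichever array was left out.

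Between phrenic and C3-C5 GFP-only neurons (10.97 ± 0.14, n = 4) Higd1a differed by 0.51 ± 0.13 (SE), which did not pass (adjusted p = 0.0848) but did with the replicate block or without phrenic replicate 4. In LMC radial neurons Higd1a was lower than the mean of the other types, at -0.55 ± 0.12 (adjusted p = 0.0236). That call ended without LMC radial replicate 1 (-0.53, adjusted p = 0.0954) or 2 (-0.48, 0.112).

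**Figure D2:**
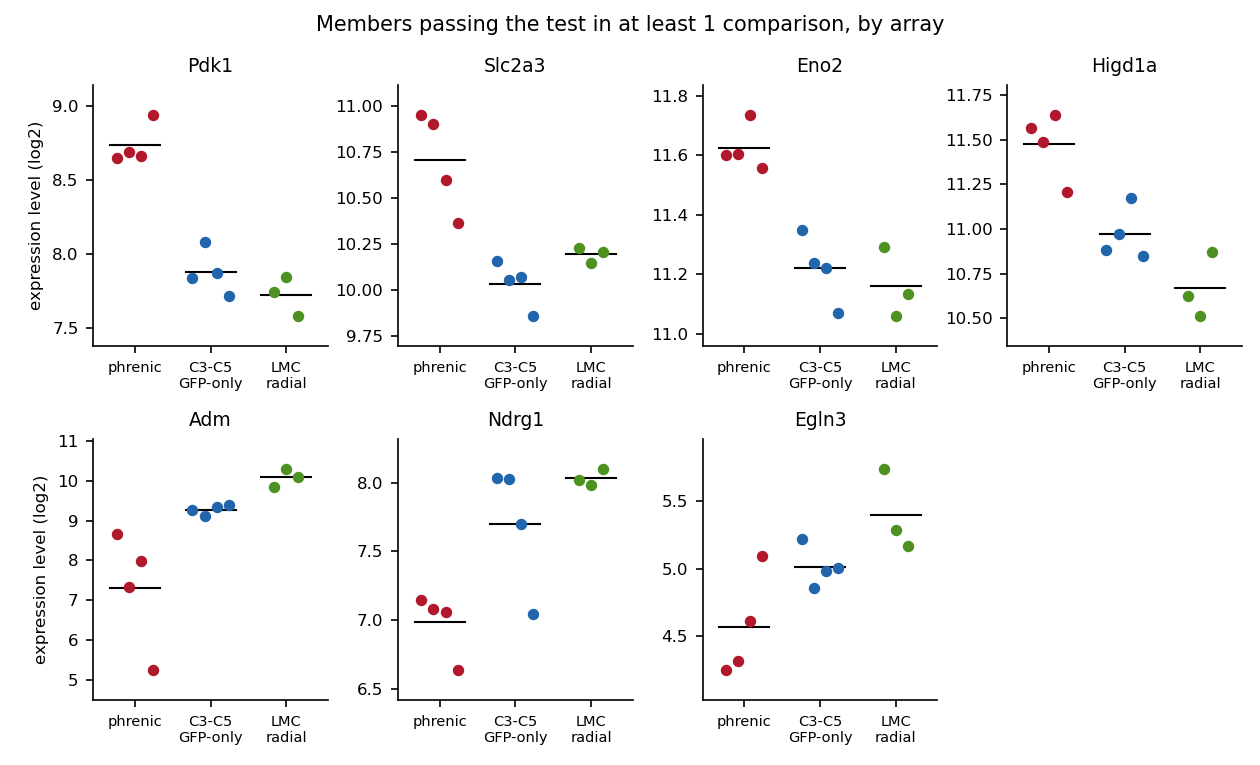
Log2 expression (y axis) of the 7 genes that passed in at least 1 comparison, with a point for each array and a line at the mean of each type. Pdk1, Slc2a3, Eno2 and Higd1a have every phrenic array above all others, and Adm has every phrenic array below all others.

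Adm encodes adrenomedullin, a secreted vasodilator peptide induced by hypoxia, and it was the gene with the largest difference and the widest spread. Adm levels in the phrenic arrays were 8.67, 7.32, 7.99 and 5.24, the C3-C5 GFP-only arrays 9.27, 9.12, 9.34 and 9.39, and the LMC radial arrays 9.85, 10.31 and 10.10. Every phrenic array was below every C3-C5 GFP-only array, and every C3-C5 GFP-only array below every LMC radial array. Phrenic replicate 4 lay far under the other phrenic arrays, and phrenic replicate 1 was nearest to the other types. The means were 7.31 ± 1.48 (SD, n = 4), 9.28 ± 0.12 (n = 4) and 10.09 ± 0.23 (n = 3).

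Adm was lower in phrenic than in LMC radial neurons by a log2 difference of -2.78 ± 0.61 (SE), a 6.88-fold step (adjusted p = 0.021), and lower than the mean of the other types, at -2.38 ± 0.50 (adjusted p = 0.0244). The difference from C3-C5 GFP-only neurons of -1.97 ± 0.56 did not pass (adjusted p = 0.124), although the arrays did not overlap. Without phrenic replicate 4 the same difference was smaller, at -1.28, and passed (adjusted p = 0.0271); the difference from LMC radial neurons was then -2.09 (adjusted p = 0.00134). LMC radial and C3-C5 GFP-only neurons differed by 0.81 ± 0.61 (adjusted p = 0.492) in the fit of all arrays, where the phrenic arrays enter the estimate of the spread. With only these 2 types fitted the same difference passed (adjusted p = 0.0123).

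The Adm call against LMC radial neurons ended without LMC radial replicate 1 (-2.90, adjusted p = 0.0568), 2 (-2.67, 0.078) or 3 (-2.78, 0.0684). The call against the mean of the other types ended without phrenic replicate 2 (-2.38, adjusted p = 0.059), C3-C5 GFP-only replicate 4 (-2.36, 0.0516), LMC radial replicate 2 (-2.32, 0.0607) or LMC radial replicate 3 (-2.37, 0.053). Across all alternatives the difference from LMC radial neurons ranged from -3.24 to -1.85. Within the set of 7 arrays phrenic neurons differed from C3-C5 GFP-only neurons by -2.37 and within the set of 4 by -1.57.

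Mean levels of the mesenchyme list beside these Adm values were 5.63, 5.28, 6.28 and 6.72 in the phrenic arrays, 4.53 to 4.80 in C3-C5 GFP-only and 5.02 to 6.01 in LMC radial arrays. The array with the lowest Adm has the highest mesenchyme, progenitor, Schwann cell and interneuron means. With the mesenchyme list as a covariate the Adm difference was -1.57 against the mean of the other types and no longer passed (adjusted p = 0.294), and -2.43 against LMC radial neurons, which passed (adjusted p = 0.035). With the Actb 3′ to 5′ difference as a covariate it was -2.13 against LMC radial neurons and did not pass (adjusted p = 0.192).

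Ndrg1, a stress-responsive protein of the N-myc downstream regulated family, was also lower in phrenic neurons. Its phrenic arrays read 7.15, 7.08, 7.06 and 6.64, the C3-C5 GFP-only arrays 8.03, 8.02, 7.70 and 7.04, and the LMC radial arrays 8.02, 7.98 and 8.10. The phrenic arrays were below all LMC radial arrays and overlapped C3-C5 GFP-only through its replicate 4. The phrenic mean of 6.98 ± 0.23 (SD, n = 4) was lower than the LMC radial mean of 8.03 ± 0.06 (n = 3), at -1.05 ± 0.22 (SE; adjusted p = 0.0193), and lower than the mean of the other types, at -0.88 ± 0.19 (adjusted p = 0.0243). Against C3-C5 GFP-only neurons (7.70 ± 0.47, n = 4) the difference of -0.72 ± 0.21 did not pass (adjusted p = 0.131) but did with the replicate block.

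The Ndrg1 call against LMC radial neurons ended without LMC radial replicate 1, 2 or 3 (-1.06, -1.08 and -1.02; adjusted p = 0.061, 0.0596 and 0.0695). The call against the mean of the others ended without phrenic replicate 2 or 3 (-0.92 and -0.91; adjusted p = 0.05 and 0.0515) and without LMC radial replicate 1, 2 or 3 (-0.89, -0.90 and -0.87; adjusted p = 0.0518, 0.0526 and 0.0552). The latter call ended as well with the mean over the probe sets of Ndrg1 (-0.38, adjusted p = 0.0754), the mesenchyme covariate (-0.69, 0.253), the Actb covariate (-0.96, 0.0536), the floor at 5 (-0.88, 0.0683), the 7 arrays (-0.89, 0.217) and without phrenic replicates 1 and 4 (-0.79, 0.0791). Egln3, a prolyl hydroxylase that is itself a hypoxia target, was near the lower end of the array. Its phrenic arrays read 4.25, 4.31, 4.61 and 5.10, the C3-C5 GFP-only arrays 5.22, 4.85, 4.98 and 5.01, and the LMC radial arrays 5.74, 5.28 and 5.17.

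Egln3 in phrenic neurons (4.57 ± 0.39, SD, n = 4) was below every LMC radial array (5.40 ± 0.31, n = 3) and lower, at -0.83 ± 0.21 (SE; adjusted p = 0.0409). The call held without phrenic replicate 4 and ended without each of the other 10 arrays, with differences from -0.95 to -0.66 and adjusted p from 0.0524, without C3-C5 GFP-only replicate 1, to 0.151, without LMC radial replicate 1. It also ended when values below 5 were raised to 5, where the difference was -0.37. The other members of this machinery, the hydroxylase Egln1 and the factor subunit Hif1a, read 10.18 ± 0.01 and 11.08 ± 0.08 in phrenic neurons (n = 4). Their differences from either other type lay between -0.04 and 0.13 and did not pass. These Hif1a values are of its brightest probe set, and its dimmer ones read otherwise. The next in brightness read 10.61 to 11.07 in phrenic arrays, above every C3-C5 GFP-only array (10.40 to 10.51), and the third read 8.44, 7.59, 7.004 and 8.47 in phrenic arrays. With the latter, phrenic neurons stood 1.31 ± 0.43 (SE) above C3-C5 GFP-only and 1.04 ± 0.47 above LMC radial neurons (adjusted p = 0.194 and 0.226), so neither passed.

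Phrenic arrays varied more among themselves than the other arrays. The SD over phrenic arrays reached 0.5 in 5 of the 30 genes (Adm, Hk2, Ddit4, Aldoc and Hk1), a level that 16.9% of all genes reached, against 0 of 30 in C3-C5 GFP-only (2.57% of all genes) and 1 of 30, P4ha1, in LMC radial arrays (5% of all genes). The median SD of the 30 genes was 0.257 in phrenic, 0.150 in C3-C5 GFP-only and 0.106 in LMC radial arrays, beside 0.248, 0.179 and 0.159 over all genes. The wider phrenic spread was thus found over all genes and not in these genes alone.

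Hk2, the inducible hexokinase, read 5.96, 6.08, 5.37 and 7.83 in phrenic arrays, between 5.92 and 6.19 in C3-C5 GFP-only arrays and between 5.76 and 6.21 in LMC radial arrays. Only phrenic replicate 4 was high, and the phrenic mean of 6.31 ± 1.06 (SD, n = 4) overlapped both other types. Ddit4, an inhibitor of mTORC1 signalling induced by hypoxia and stress, read 11.33, 10.90, 10.55 and 9.69 in phrenic arrays, with replicate 4 the lowest. The C3-C5 GFP-only arrays read 10.68, 10.38, 10.19 and 10.07 and the LMC radial arrays 10.42, 10.95 and 10.58.

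Aldoc, the brain form of aldolase, read 7.93, 7.48, 7.20 and 6.56 in phrenic arrays, 6.84, 6.46, 6.42 and 6.10 in C3-C5 GFP-only arrays and 6.64, 7.12 and 7.26 in LMC radial arrays. Its difference between phrenic and C3-C5 GFP-only neurons, 0.84 ± 0.27 (SE), did not pass with all arrays (adjusted p = 0.179) and passed without phrenic replicate 4. Hk1, the constitutive hexokinase, read 8.74, 9.27, 9.91 and 8.98 in phrenic arrays and 8.94, 9.35, 9.27 and 8.75 in C3-C5 GFP-only arrays. In both types replicates 2 and 3 were the high ones, which are the arrays of the set of 4 with the lower 25th percentile. The LMC radial arrays read 8.89, 8.84 and 8.74.

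Phrenic replicate 4 was the lowest phrenic array in 13 of the 30 genes, where it was the lowest in 25.1% of all genes, and the highest in 7, where it was the highest in 33.5% of all genes. Phrenic replicate 1 was the lowest in 10 and the highest in 11 of the 30, beside 24.9% and 26.1% of all genes. Phrenic replicate 4 lay at least 1 below the mean of the other phrenic arrays in Adm and Ddit4 and at least 1 above it in Hk2. Its median distance from the other 3 was -0.13 over the 30 genes and 0.05 over all genes.

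**Figure D3:**
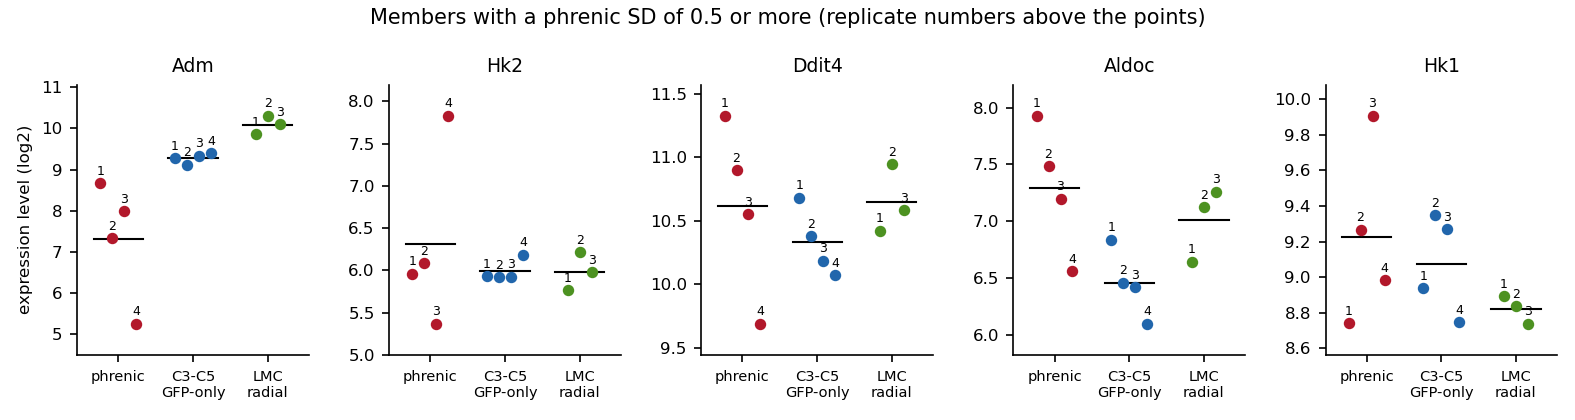
Log2 expression (y axis) of the 5 genes whose phrenic arrays had an SD of 0.5 or more, with replicate numbers above the points and a line at each mean. Phrenic replicate 4 is the lowest phrenic array for Adm, Ddit4 and Aldoc and the highest for Hk2.

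The other enzymes of the pathway differed little. Ldha, which makes lactate, stood 0.34 ± 0.13 (SE) above C3-C5 GFP-only and 0.38 ± 0.14 above LMC radial neurons (adjusted p = 0.271 and 0.145). Its phrenic arrays read 10.43, 10.87, 10.90 and 10.45 and lay above all others, whose highest value was 10.39. Ldhb, the subunit that favours pyruvate, differed by -0.12 and 0.07. Tpi1 (0.24 and 0.20) and Pgam1 (0.22 and 0.24), which interconvert the 3-carbon intermediates, also had higher phrenic means without passing, while Pgk1 (0.10 and -0.01) and Pkm (0.00 and -0.06), which make the ATP of the pathway, had nearly level means.

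The phosphofructokinases, which set the pace of glycolysis, had differences of 0.40 and 0.26 for Pfkl, 0.25 and 0.13 for Pfkm and 0.07 and 0.28 for Pfkp from C3-C5 GFP-only and LMC radial neurons. Aldoa, the common aldolase, gave 0.09 and 0.27, and Pfkfb3, which makes the activator of phosphofructokinase, 0.04 and -0.23. None of these passed. Within the set of 7 arrays the differences from LMC radial neurons were 0.41 for Pfkl, 0.29 for Pfkm and 0.04 for Pfkp. Those of Aldoa and Pfkfb3 were -0.01 and -0.31. The 3′ control probe set of Gapdh read between 12.36 and 12.51 on all 11 arrays.

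Among hypoxia targets that did not pass, Bnip3, a mitophagy receptor, had all its phrenic arrays (10.23, 10.63, 10.59 and 10.20) above all others, with differences of 0.38 ± 0.12 (SE, adjusted p = 0.178) and 0.43 ± 0.13 (adjusted p = 0.0851). The Bnip3 excess over C3-C5 GFP-only was 0.13 within the set of 7 arrays and 0.64 within the set of 4. Over LMC radial neurons it was 0.23 within the set of 7. P4ha1, a subunit of collagen prolyl hydroxylase, was above in every phrenic array too (6.74 to 7.14), by 0.62 ± 0.23 and 0.65 ± 0.24 (adjusted p = 0.243 and 0.143). Its relative P4ha2 differed by 0.06 and 0.51, and Ankrd37, an ankyrin repeat target of the factor, by 0.46 and 0.41. Vegfa, the growth factor of blood vessels, differed by 0.13 and -0.05. Adm and Vegfa, both secreted hypoxia signals, thus had different values: Vegfa levels were 7.55 ± 0.28 (SD, n = 4), 7.42 ± 0.16 (n = 4) and 7.60 ± 0.19 (n = 3).

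For 17 of the 23 genes that passed nowhere, the 95% intervals of all 3 pairwise differences lay inside a 2-fold change in either direction. The exceptions were Aldoc, Ddit4, Hk2, P4ha1, P4ha2 and Slc2a1, whose intervals reached beyond it. For these 6 the arrays leave a 2-fold difference possible in at least 1 pair. The intervals are of the brightest probe set of each gene, and dimmer probe sets of Hif1a and Pfkp gave differences beyond a 2-fold change.

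Further probe sets of the same genes gave a second reading. Pdk1 has 4, and the brightest stands for the gene above. The next in brightness was higher in phrenic than in C3-C5 GFP-only neurons by 0.91 (adjusted p = 0.0223) and than in LMC radial neurons by 0.76 (adjusted p = 0.0357), and the dimmest was higher by 1.01 (adjusted p = 0.0381) and 1.502 (adjusted p = 0.00333). The remaining one read 7.37, 8.14, 7.95 and 5.80 in phrenic arrays and passed in neither. There phrenic replicate 4 was the lowest of all arrays, where it was the highest with the brightest probe set. Adm has besides the probe set used above a dim one, at 4.49 to 4.84 in phrenic, 5.16 to 5.64 in C3-C5 GFP-only and 4.95 to 5.93 in LMC radial arrays. With the dim one Adm was lower in phrenic than in LMC radial neurons, at -0.91 (adjusted p = 0.0355), and did not pass against C3-C5 GFP-only neurons, at -0.73 (adjusted p = 0.124). All its phrenic values lie below 5, where the order of arrays is limited by signal over background, so it adds little to the brighter one.

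Names ending in x_at or s_at mark probe sets whose probes can match other transcripts, and those for Adm, Slc2a3, Ndrg1 and Higd1a are of this kind, so some signal may come from related sequences. For Higd1a, the second probe set by brightness was higher in phrenic than in LMC radial neurons by 1.01 (adjusted p = 0.00718). The dimmest one of Higd1a read 8.03, 8.27, 8.33 and 6.30 in phrenic arrays. It read 7.07 to 7.42 in C3-C5 GFP-only and 6.45 to 6.86 in LMC radial arrays, so phrenic replicate 4 was below them all. For Slc2a3, the second was higher in phrenic than in C3-C5 GFP-only neurons by 0.80 (adjusted p = 0.0264), while its other probe sets lay between 2.64 and 3.43 on all arrays. Of the other probe sets of Ndrg1, 1 passed, and in 1 comparison: it was higher in LMC radial neurons than in the mean of the others by 0.75 (adjusted p = 0.0443). Conversely Pfkl (0.69, adjusted p = 0.0118) and Pfkp (1.10, adjusted p = 0.0246) were higher in phrenic than in LMC radial neurons, and Aldoa (0.49, adjusted p = 0.0441) in LMC radial than in C3-C5 GFP-only neurons, with a probe set other than the brightest.

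**Figure D4:**
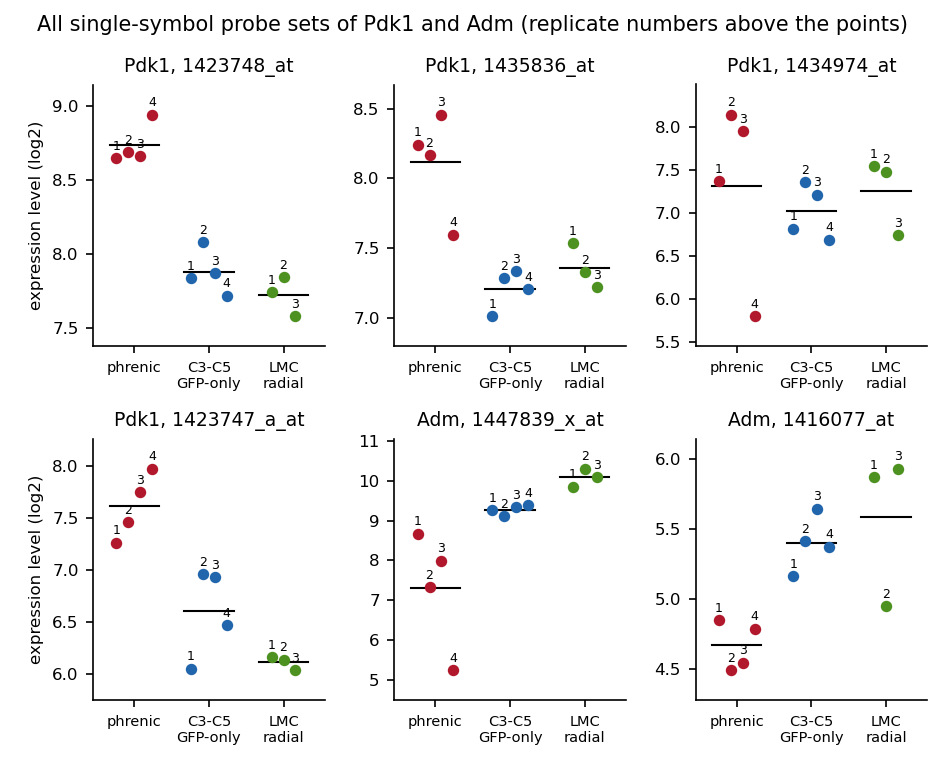
Log2 expression (y axis) by array for the 4 probe sets of Pdk1 and the 2 of Adm that carry a single symbol, with replicate numbers above the points and lines at the means. Phrenic neurons have the highest mean for each Pdk1 probe set and the lowest for both Adm probe sets, of which the dim one lies below 5 on every phrenic array. Phrenic replicate 4 changes its place between the Pdk1 probe sets.

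The rest of the pathway was read from lists that do not include the 34 genes. Of 26 tested further targets of hypoxia inducible factor, 3 were higher (Ak4, Plod2 and Pgm1) and 1 lower (Insig2) in phrenic neurons than in the mean of the other types, with a median difference of 0.09, where 3.08% of all genes were higher and 1.79% lower. Ak4, a mitochondrial adenylate kinase, read 10.07, 9.19, 9.08 and 9.08 in phrenic arrays, 6.93 to 7.42 in C3-C5 GFP-only and 6.25 to 7.73 in LMC radial arrays, without overlap. It was higher by 2.16 ± 0.31 (SE, adjusted p = 0.00519) and 2.25 ± 0.34 (adjusted p = 0.00293). This was a larger phrenic excess than any of the 30 genes had, read from a probe set of the s_at kind. Averaged over its probe sets the 2 differences were 0.95 and 0.90, and passed.

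Insig2, which restrains sterol synthesis, read 7.0, 7.33, 7.13 and 6.33 in phrenic arrays, 7.93 to 8.45 in C3-C5 GFP-only and 8.67 to 8.83 in LMC radial arrays. It was lower in phrenic neurons, at -1.34 ± 0.20 (SE; adjusted p = 0.00635) and -1.79 ± 0.22 (adjusted p = 0.000794), also without overlap. Pgm1, which links glycogen to glycolysis, was higher than the mean of the others by 0.62 (adjusted p = 0.022), a call that ended without phrenic replicate 1 or 2 or LMC radial replicate 3 (adjusted p up to 0.0655) and with the 7 arrays. When its probe sets were averaged the difference was 0.017 and did not pass. Against LMC radial neurons the brightest probe set of Pgm1 gave 0.63 (adjusted p = 0.0367), which passed in 2 of the 11 fits without an array, and the average of its probe sets gave -0.22, so the direction turns with the probe set. Plod2, a collagen lysyl hydroxylase, was higher by 0.65 (adjusted p = 0.0363) than the mean of the others. Of the 11 fits without an array it passed in 2, those without phrenic replicate 2 or C3-C5 GFP-only replicate 3, with adjusted p up to 0.0821 in the rest. Of the 12 other alternatives it passed in 2, the dim filter and the 7 arrays, and the replicate block was among the 10 that ended the call.

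Of 27 further genes of glycolysis, pyruvate and lactate handling, 1 was higher and 0 lower in phrenic neurons than in the mean of the others, beside 3.08% and 1.79% of all genes. The higher one was Slc16a3, the transporter that exports lactate from glycolytic cells, at 8.27, 7.90, 8.20 and 7.61 in phrenic, 6.27 to 6.55 in C3-C5 GFP-only and 6.65 to 7.12 in LMC radial arrays. The types did not overlap, and phrenic neurons were higher by 1.55 ± 0.16 (SE; adjusted p = 0.000611) than C3-C5 GFP-only and by 1.10 ± 0.17 (adjusted p = 0.00384) than LMC radial neurons. The calls of Ak4, Insig2 and Slc16a3 in these pairs held whichever array was left out. With the 7 arrays alone, those of Ak4 and Slc16a3 ended in both pairs and that of Insig2 ended against C3-C5 GFP-only neurons; with the mesenchyme covariate those of Ak4 and Insig2 ended against C3-C5 GFP-only neurons. Dld, the dihydrolipoamide dehydrogenase subunit of pyruvate dehydrogenase, was lower in LMC radial neurons than in the mean of the others (-0.46, adjusted p = 0.0438) and than in C3-C5 GFP-only neurons (-0.60, adjusted p = 0.0371). These calls held in 1 and 4 of the 11 fits without an array. In LMC radial neurons against the mean of the others Insig2 (1.12, adjusted p = 0.00705) and Hif3a (0.94, adjusted p = 0.0244) were higher. Ak4 was lower there (-1.17, adjusted p = 0.0411), where 3.4% of all genes were higher and 3.67% lower. This Ak4 call held in 3 of the 11 fits without an array. The Ak4 mean of LMC radial neurons (7.10) was near that of C3-C5 GFP-only neurons (7.19). The Hif3a call ended without any 1 LMC radial array. In C3-C5 GFP-only neurons against the mean of the others Slc16a3 was lower (-1.004, adjusted p = 0.00873). Among 14 subunits and regulators of hypoxia inducible factor, 0 passed between phrenic and C3-C5 GFP-only neurons in limma, where 1.96% of all probe sets did. At an unadjusted p under 0.05 there were 3 of 14, against 13% of all probe sets. Hif3a was lower in phrenic than in LMC radial neurons (-0.995, adjusted p = 0.0323), where 3.14% of all probe sets were lower. That call ended without phrenic replicate 1, 2 or 3 or any LMC radial array (adjusted p up to 0.104). Of 6 tested pentose phosphate genes and 16 tricarboxylic acid cycle genes 0 passed in limma in each of the 6 comparisons, where 0.973% to 7.02% of all probe sets did. At an unadjusted p under 0.05 either list had 0 or 1 gene in each comparison, against 13% to 22.9% of all probe sets. Of 24 immediate early and stress genes, Ddit3 was lower in phrenic neurons than in the mean of the others (-0.61, adjusted p = 0.0355) and, with Atf4 (-0.54, adjusted p = 0.0359), than in LMC radial neurons (-0.66, adjusted p = 0.0424), where 1.79% and 3.0% of all genes were lower. Each of these 3 calls held in 3 of the 11 fits without an array.

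Receptor genes for the secreted members were read as well. Adrenomedullin signals through Calcrl paired with Ramp2 or Ramp3. Calcrl (means of 5.67 in phrenic neurons, 5.05 in C3-C5 GFP-only neurons and 5.28 in LMC radial neurons) and Ramp2 (5.87, 5.20 and 5.58) did not pass in any comparison. Ramp3 read 5.13 to 5.66 in phrenic, 6.54 to 7.48 in C3-C5 GFP-only and 3.66 to 4.24 in LMC radial arrays. It was lower in phrenic than in C3-C5 GFP-only neurons (-1.70 ± 0.21, SE; adjusted p = 0.00204) and higher than in LMC radial neurons (1.38 ± 0.23, adjusted p = 0.00513), so its order differed from that of Adm. Its LMC radial arrays all lay below 5, and with values below 5 raised to 5 the difference from LMC radial neurons was 0.35 and did not pass. That call also ended with the Actb covariate, and the call against C3-C5 GFP-only neurons ended with the mesenchyme covariate and with the 7 arrays. Nrp1, a coreceptor of vascular endothelial growth factor and of semaphorins, was lower in phrenic neurons, at 11.13 to 11.35 against 11.65 to 11.91 and 11.91 to 11.96. The differences were -0.51 ± 0.10 (adjusted p = 0.0216) and -0.70 ± 0.10 (adjusted p = 0.00266). That from C3-C5 GFP-only neurons did not pass without phrenic replicate 1 or C3-C5 GFP-only replicate 1, 3 or 4 (adjusted p up to 0.068). The same call ended with the replicate block, the mesenchyme covariate (-0.38) and the 7 arrays. It also ended without phrenic replicates 1 and 4 and with only the 2 types fitted. Flt1, Kdr, Ramp1 and Nrp2 did not pass; Kdr and Ramp1 stayed below 5 on every array.

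**Figure D5:**
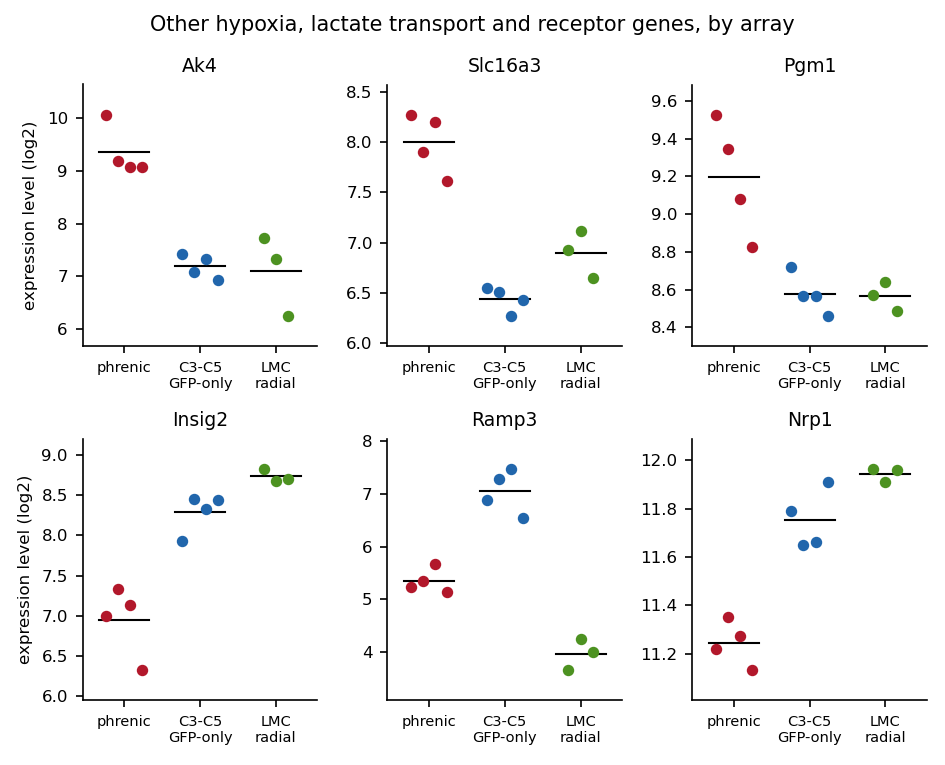
Log2 expression (y axis) by array of 6 genes outside the 34: Ak4, Slc16a3 and Pgm1 in the upper row and Insig2, Ramp3 and Nrp1 in the lower row, each by its brightest probe set, with lines at the means. In the phrenic arrays Ak4, Slc16a3 and Pgm1 are above all others, Insig2 and Nrp1 are below all others, and Ramp3 lies between the other types.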

How the data were processed

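Total RNA (6 ug per sample) of sorted motor neurons was hybridised to Affymetrix arrays. The deposited values are log2 levels per probe set, made by the authors with RMA per the labels' processing notes (version not stated), a method that corrects background, normalizes by quantiles and summarises probes. Of 45101 probe sets, 64 controls were left out and 45037 tested without a filter. Arrays were grouped by the labels' cell type. limma 3.58.1 in R 4.3.3 fitted a mean per type over all 11 arrays (8 residual and 2.92 prior degrees of freedom), with 6 two-sided comparisons and Benjamini-Hochberg adjustment over all probe sets. The fit was also run on simulated data with independent noise of the same spread in all types. That run does not cover the wider spread of the phrenic arrays or deviations that arrays share.

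The members and gene lists were chosen with earlier results of these data known. Per-array values are given for genes that passed, for Adm and for genes with a phrenic SD of 0.5 or more. From other lists, genes that passed in a comparison are named, at most 4 a list and comparison by smallest p, and the receptors of Adm and Vegfa always. The number of arrays limits the precision.

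Same-numbered phrenic and C3-C5 GFP-only arrays deviated together (correlations of 0.125, 0.183, 0.224 and 0.177), and replicate number was tried as a block over all 3 types. Each phrenic array, however, correlated best with a C3-C5 GFP-only array of another number (1 with 4, 2 with 3, 3 with 2 and 4 with 1), of the same 25th percentile set. Same-numbered phrenic and LMC radial arrays did not deviate together (0.0081, -0.028 and -0.025). The numbers are therefore not shown to pair the arrays. Alternatives were quantile normalization, median centring, a dim filter, a floor at 5, a trended robust prior, array weights, the replicate block, gene means, covariates for the mesenchyme list and the Actb 3′ to 5′ difference, the 7 arrays with the higher 25th percentile, fits without phrenic replicates 1 and 4, fits of only the 2 types compared, and leaving out each array.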

Additional observations from a re-analysis of the deposited data

Results flagged for a closer look

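Of 60 groups of 4 arrays (30 genes in phrenic and in C3-C5 GFP-only neurons), 7 held an array farther from the rest than Dixon's 95% critical value for 4 arrays allows. Chance would give about 1 in 20 independent groups, but these groups share the same arrays and are not independent. The rate over all genes was not computed, so the 7 cannot be read as an excess in these genes. LMC radial neurons, with 3 arrays, were not examined in this way. Phrenic replicate 4 was the highest phrenic array for Pdk1, at 8.94 with the nearest at 8.69, and the lowest for Vegfa, at 7.14 with the nearest at 7.65. C3-C5 GFP-only replicate 4 was the highest for Hk2, at 6.19 with the nearest at 5.93. It was the lowest for Tpi1, at 10.205 with the nearest at 10.254, for Ldhb, at 11.01 with the nearest at 11.27, and for P4ha1, at 6.04 with the nearest at 6.39. C3-C5 GFP-only replicate 1 was the highest for Egln1, at 10.55 with the nearest at 10.06. Adm in phrenic arrays was not among them, because its other 3 arrays are spread as well.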

How the results depend on the processing

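Of the 16 differences that passed (a gene in a comparison), 5 passed without any 1 array and 2, those of Pdk1 between phrenic and LMC radial neurons and between phrenic neurons and the mean of the others, passed under every alternative run. The count of genes passing is given below with the share of all probe sets passing in the same fit, which moved as well. The count for phrenic neurons against the mean of the others (6, 3.85%) was 3 with the Actb covariate (2.62%). It was 1 with the 7 arrays of the higher 25th percentile (1.13%) and 2 to 9 with an array left out (2.67% to 5.26%). For LMC radial against the mean of the others (2, 7.02%) it was 4 with quantile normalization (5.63%), 1 with the floor at 5 (1.74%) and 5 with array weights (15.2%). It was 0 with the Actb covariate (1.91%), 0 with the 7 arrays (1.22%) and 7 without phrenic replicates 1 and 4 (14.9%). With an array left out it was 1 to 4 (3.49% to 10.5%). For C3-C5 GFP-only against the mean of the others (0, 0.973%) it was 2 with array weights (3.9%) and 0 to 1 with an array left out (0.264% to 1.45%). For phrenic against C3-C5 GFP-only (2, 1.96%) it was 4 with the trended robust prior (2.27%), 4 with the replicate block (1.91%) and 1 with the mesenchyme covariate (0.524%). It was 0 with the 7 arrays (0.282%), 5 without phrenic replicates 1 and 4 (2.32%) and 1 with only the 2 types fitted (1.35%). With an array left out it was 1 to 5 (1.02% to 2.75%). For phrenic against LMC radial (6, 6.61%) it was 3 with the floor at 5 (2.32%), 1 with the Actb covariate (2.28%) and 1 with the 7 arrays (1.73%). It was 11 without phrenic replicates 1 and 4 (12.4%), 3 with only the 2 types fitted (3.13%) and 2 to 8 with an array left out (3.73% to 9.47%). For LMC radial against C3-C5 GFP-only (0, 3.76%) it was 1 with array weights (14.8%) and 1 without phrenic replicates 1 and 4 (7.84%). It was 1 with only the 2 types fitted (8.16%) and 0 to 1 with an array left out (1.35% to 5.89%). Adm in C3-C5 GFP-only neurons against the mean of the others, at 0.58 and not passing, reversed to -0.51 with the mesenchyme covariate. The replicate block ended none of the 16 calls. Fewer arrays enter the fits of 7 arrays and of 2 types; for the other settings the cause was not tested. Levels near 5 and below, as for Egln3, are limited by signal over background.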
